A study of Mus musculus with 6 samples.

Results

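The ETS factors downstream of fibroblast growth factor (FGF) were examined in murine enterospheres, free-floating spheres grown from the muscle layer of the newborn gut that contain progenitor cells of the enteric nervous system. The set comprised 10 genes of 19938 with an array row of their own, namely Etv1, Etv4, Etv5, Elk1, Elk3, Elk4, Ets1, Ets2, Etv6 and Gabpa. They were chosen by name, and every row of the value table annotated with exactly 1 of these symbols was taken, which gave 12 of 35556 rows. Etv1 and Etv5 had 2 rows each, and for them the row with the higher mean over the 6 arrays was used as the main row, with the other row given beside it.

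Gene expression was measured on GeneChip Mouse Gene 1.0 ST arrays in 3 samples of the differentiation group and 3 samples of the proliferation group. Enterospheres of the differentiation group had been grown for 9 days in proliferation medium and were then kept for 2 days in differentiation medium, which contained ascorbic acid-2-phosphate and no added growth factors. Enterospheres of the proliferation group stayed in proliferation medium with epidermal growth factor (EGF, 10 ng/mL) and FGF (20 ng/mL) for all 11 days. Per the labels, each sample came from the guts of 3 neonatal C57BL/6 mice, with no genetic change named. The study's methods differ from the labels in the EGF concentration, the pups per culture and the lengths of the culture phases within the first 9 days. The methods also state independent experiments with pups of the same litter in each. The labels list the supplement B27 for the proliferation medium only, whereas by the study's methods all cultures received it at seeding and not afterwards. Withdrawal of EGF, withdrawal of FGF, addition of ascorbic acid-2-phosphate and, if the labels hold, absence of B27 cannot be told apart. The spheres hold several cell types of the gut muscle layer, so that fewer cells of a type and less RNA per cell cannot be told apart in any value given here.

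ETS factors bind DNA through a winged helix-turn-helix domain that recognises the core letters GGAA. FGF receptors act through RAS and the kinase ERK, which phosphorylates several ETS proteins, and the PEA3 subfamily genes (Etv1, Etv4 and Etv5) are in addition switched on at the level of their mRNA and serve as common readouts of FGF signalling in vertebrate embryos. The ternary complex factors Elk1, Elk3 and Elk4 bind with serum response factor at immediate-early genes, whereas Ets1 and Ets2 are activated by ERK at a threonine near the pointed domain. In the gut muscle layer of mice, Etv1 is known as a factor of interstitial cells of Cajal, the pacemaker cells.

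All values are log2 expression levels and all differences are differentiation minus proliferation, so a negative value means a lower level in the differentiation group. Over the whole array, 766 rows were downregulated and 693 upregulated at an adjusted p under 0.05 (limma, Benjamini-Hochberg over all rows, two-sided). Array medians lay between 6.11 and 6.19, and the arrays correlated at 0.988 to 0.995 within the groups and at 0.983 to 0.989 across them. With 3 samples against 3, an exact permutation test of a single gene cannot go below p = 0.1, and the number of arrays limits the precision of every value.

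Of the 10 ETS genes, 4 were downregulated in the differentiation group, none was upregulated and 6 did not pass the test. The downregulated genes were Etv5, Etv4, Elk3 and Ets1, 40.0% of the set, whereas 2.97% of all genes were downregulated, 2.94% upregulated and 5.91% either. At an unadjusted p under 0.05 limma gave 5 lower and 0 higher genes, and the methods' t-test also gave 5 and 0. This threshold is loose, since 5560 of all 35556 rows had an unadjusted limma p under 0.05, in either direction. Etv1, the gene added by it, ranked 3350 of 19938 genes by its unadjusted limma p of 0.0353. The same background holds for the unadjusted counts of the gene lists below. In 6 of the 10 genes the samples of the groups did not overlap, 5 with lower and 1 with higher values in the differentiation group, against 12.9% and 14.6% of all genes, or 27.5% in either direction. The median difference of the 10 genes was -0.13, against 0.02 over all genes. The study itself lists Etv5, Etv4 and Elk3 among its regulated genes, chosen on these same samples, so their direction here is not independent evidence.

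**Figure D1:**
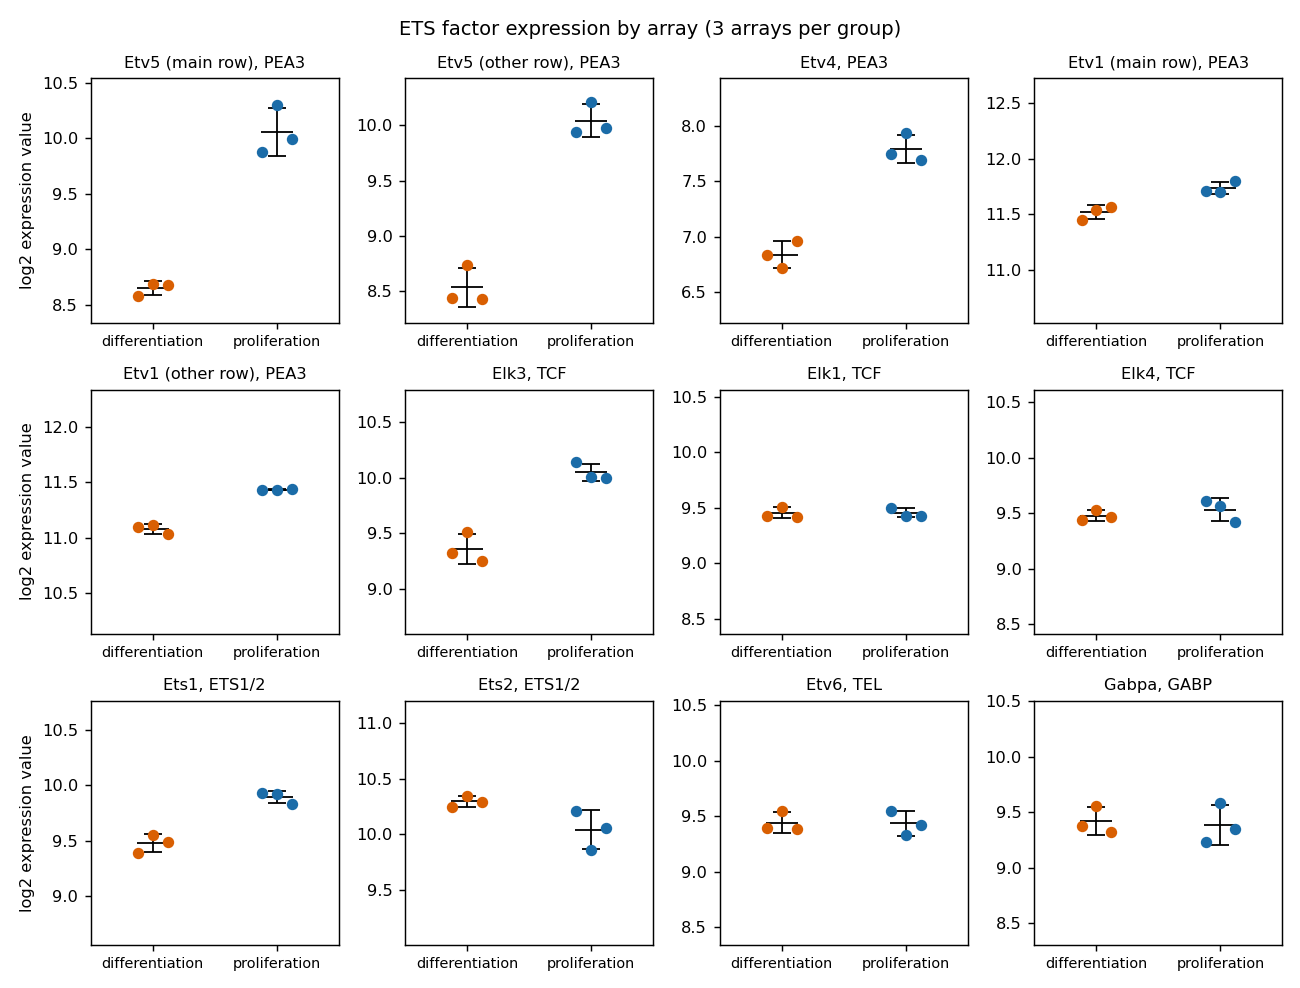
Log2 expression level of each of the 12 rows of the 10 ETS genes in the 3 differentiation samples (orange, left in each panel) and the 3 proliferation samples (blue, right), with the subfamily in each title. Points are samples and lines are the mean with 1 SD, and every panel spans the same range of log2 units around its own level. In both rows of Etv5 and in Etv4 and Elk3 every differentiation sample lies well below every proliferation sample, whereas the points of Elk1, Elk4, Etv6 and Gabpa overlap.

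Etv5, which in mice also sustains self-renewal of spermatogonial stem cells, was the most strongly downregulated of the 10 genes. Its main row read 8.58, 8.69 and 8.68 in the differentiation samples, against 9.88, 10.3 and 9.99 in the proliferation samples. The groups were separated by a gap of 1.19, far more than the spread within either group, and the second proliferation sample was the highest. The mean was 8.65 ± 0.057 in the differentiation group and 10.06 ± 0.22 in the proliferation group (SD, n = 3 each), a difference of -1.41 (SE 0.12), or 2.65-fold downregulation with a 95% interval of 2.17 to 3.24 (limma, adjusted p = 0.00363). By size of the decrease Etv5 ranked 146 of 19938 genes. The other row of Etv5 read 8.44, 8.74 and 8.43 in the differentiation samples, against 9.94, 10.21 and 9.97 in the proliferation samples, and was 2.84-fold downregulated (difference -1.51, SE 0.12, adjusted p = 0.00316). Both rows thus gave the same direction and nearly the same size.

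The position of the rows in the array's numbering was compared with the chromosome of each gene, taking the 10 annotated rows on either side. The main row of Etv5 had 0 of 20 neighbours on the chromosome of Etv5, all 20 lying on another chromosome, whereas the other row had 19 of 20 on it. The main row of Etv1 likewise had 0 of 20 neighbours on its gene's chromosome and the other row of Etv1 had 20 of 20. The remaining 8 genes had 18 to 20 of 20. Whether the main rows of Etv5 and Etv1 read a copy elsewhere in the genome was not tested, so the values of both rows are given for these genes.

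The promoter windows of the PEA3 gene with the largest decrease are shown because the repressor Capicua (CIC), which is relieved by ERK, is known to act on PEA3 genes through a short motif. RefSeq (GRCm38.p6) gives 2 start sites for Etv5, and the windows run from 250 bases before to 50 bases after each start, on the minus strand. Capitals mark the letters TGAATGG or, on the other strand, CCATTCA, the first 7 letters of the CIC octamer TGAATGGA.
Etv5, chr16:22439521-22439820: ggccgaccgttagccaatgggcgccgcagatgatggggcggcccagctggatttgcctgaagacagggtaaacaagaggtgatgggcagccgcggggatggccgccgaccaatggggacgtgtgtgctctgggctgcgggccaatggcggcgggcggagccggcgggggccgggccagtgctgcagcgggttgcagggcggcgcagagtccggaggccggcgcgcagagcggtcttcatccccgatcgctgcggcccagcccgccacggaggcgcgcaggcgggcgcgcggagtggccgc
Etv5, chr16:22438319-22438618: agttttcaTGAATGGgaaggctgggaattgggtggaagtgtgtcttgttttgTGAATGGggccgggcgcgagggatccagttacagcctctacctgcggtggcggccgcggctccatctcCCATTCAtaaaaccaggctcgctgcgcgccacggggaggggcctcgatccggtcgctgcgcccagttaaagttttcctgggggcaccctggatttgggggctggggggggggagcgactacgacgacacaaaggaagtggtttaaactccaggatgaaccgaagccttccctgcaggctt
The second window held TGAATGG 3 times and the first 0 times. Of 32544 distinct promoter windows of the same length, 3.57% held these letters at least once. The heptamer was noticed on reading this window and then counted, so its number here is a description with no independent background. The full octamers TCAATGAA, TCAATGGA, TGAATGAA and TGAATGGA, searched on both strands, occurred in none of the 12 windows of the 8 ETS genes in the table, against 3.77% of all windows. The ETS core GGAA occurred 6 times in the second Etv5 window and 0 times in the first. It was present in 96.0% of all windows, and 3 or more times in 66.3%. A match is a description of the letters only.

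Etv4, the second PEA3 gene, which in mice acts with Etv5 in branching of the ureteric bud, was downregulated as well. It read 6.83, 6.72 and 6.96 in the differentiation samples, against 7.74, 7.93 and 7.69 in the proliferation samples. The groups were separated by 0.73, and no sample stood apart within its group. The mean was 6.84 ± 0.12 in the differentiation group and 7.79 ± 0.13 in the proliferation group (SD, n = 3 each), which amounted to 1.93-fold downregulation with a 95% interval of 1.63 to 2.3 (difference -0.95, SE 0.1, limma, adjusted p = 0.00654). Etv4 ranked 322 of 19938 genes by size of the decrease.

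Etv1, the PEA3 factor of interstitial cells of Cajal, had the smallest difference within its subfamily. Its main row read 11.45, 11.54 and 11.57 in the differentiation samples, against 11.71, 11.7 and 11.8 in the proliferation samples. All differentiation samples lay below all proliferation samples by a gap of 0.12, but the difference of -0.21 (95% interval -0.4 to -0.019) did not pass the adjusted test (limma, adjusted p = 0.264). The other row, which lies among rows of its own chromosome, read 11.1, 11.11 and 11.03 in the differentiation samples, against 11.43, 11.43 and 11.44 in the proliferation samples. Its difference of -0.35 (95% interval -0.53 to -0.18, adjusted p = 0.0518) was just outside the threshold. The 4 markers of interstitial cells of Cajal, Kit, Ano1, Thbs4 and Prkcq, had a median difference of -1.0, and their part in the values of Etv1 was not tested.

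Among the ternary complex factors, Elk3 was downregulated while Elk1 and Elk4 did not pass the test. Elk3, also called Net, represses serum response genes until ERK phosphorylates it. It read 9.32, 9.51 and 9.25 in the differentiation samples, against 10.14, 10.01 and 10.0 in the proliferation samples, with a gap of 0.49 between the groups. The mean was 9.36 ± 0.14 in the differentiation group and 10.05 ± 0.08 in the proliferation group (SD, n = 3 each), or 1.61-fold downregulation with a 95% interval of 1.37 to 1.9 (difference -0.69, SE 0.099, limma, adjusted p = 0.0148). Without the first differentiation sample or the third proliferation sample the adjusted p was 0.0893 and 0.0662, so the call of Elk3 depended on these samples.

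The promoter window of Elk3 (RefSeq, GRCm38.p6, minus strand) is shown as that of the only ternary complex factor that passed the test, with the ETS core GGAA in capitals.
Elk3, chr10:93311110-93311409: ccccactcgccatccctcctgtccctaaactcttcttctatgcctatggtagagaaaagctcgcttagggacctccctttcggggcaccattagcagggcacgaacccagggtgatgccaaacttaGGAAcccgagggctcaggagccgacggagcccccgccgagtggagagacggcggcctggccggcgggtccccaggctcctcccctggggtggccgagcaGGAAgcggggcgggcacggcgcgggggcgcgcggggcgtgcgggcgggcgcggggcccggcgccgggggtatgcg
It held GGAA 2 times. Of all windows 96.0% held it at least once and 66.3% held it 3 or more times. None of the 12 windows of the ETS genes held the serum response factor CArG box, which 1.64% of all windows contained, or TGANTCA, the AP-1 element, which 7.79% contained. The longer ETS site CCGGAAGT, found in 3.92% of all windows, occurred once among them, in a window of Elk4.

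Elk1, the classical ternary complex factor, read 9.43, 9.51 and 9.42 in the differentiation samples and 9.5, 9.43 and 9.43 in the proliferation samples. The groups overlapped, and the 95% interval of the ratio of differentiation to proliferation was 0.879 to 1.13 (limma, adjusted p = 0.99). Elk4, also called Sap1, read 9.44, 9.53 and 9.47 in the differentiation samples and 9.61, 9.57 and 9.42 in the proliferation samples. Here too the groups overlapped, with an interval of 0.836 to 1.11 (adjusted p = 0.832), so changes as large as that of Elk3 lay outside both intervals.

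Of Ets1 and Ets2, which share the pointed domain and its ERK site, only Ets1 passed the test. Ets1, known for its roles in endothelial cells, lymphocytes and neural crest, read 9.39, 9.55 and 9.49 in the differentiation samples, against 9.93, 9.92 and 9.83 in the proliferation samples. The gap of 0.29 corresponded to 1.34-fold downregulation with a 95% interval of 1.17 to 1.53 (difference -0.42, SE 0.083, limma, adjusted p = 0.0413). This was the weakest of the 4 calls, and it was lost when any of the 6 samples was left out (adjusted p 0.0836 to 0.195). Ets2 read 10.25, 10.35 and 10.29 in the differentiation samples, against 10.21, 9.86 and 10.06 in the proliferation samples. The lowest differentiation sample lay only 0.039 above the highest proliferation sample, and the difference of 0.25 (95% interval -0.002 to 0.51, adjusted p = 0.323) did not pass the test.

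Etv6, a repressor of the family that ERK can inactivate, read 9.39, 9.55 and 9.38 in the differentiation samples and 9.55, 9.33 and 9.42 in the proliferation samples. Its groups overlapped, and the 95% interval of the ratio was 0.856 to 1.18 (limma, adjusted p = 0.99). Gabpa, the DNA-binding subunit of the GA-binding protein, which drives many housekeeping and mitochondrial genes, read 9.38, 9.56 and 9.32 in the differentiation samples and 9.23, 9.58 and 9.35 in the proliferation samples. It overlapped as well, with an interval of 0.84 to 1.25 (adjusted p = 0.929).

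**Figure D2:**
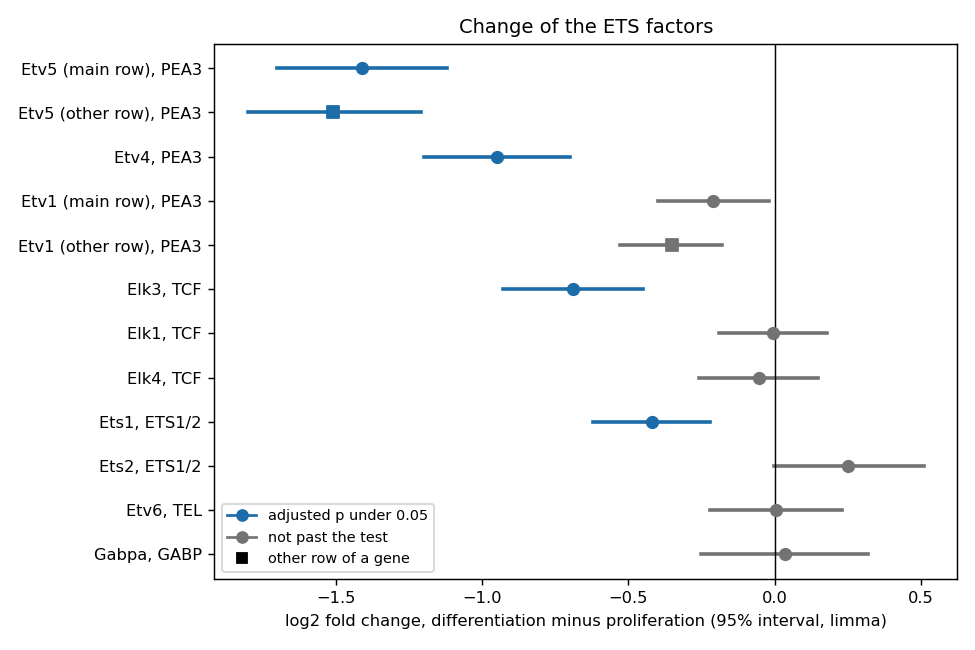
Log2 difference, differentiation minus proliferation, of each row of the 10 ETS genes (point or, for the other row of a gene, square) with its 95% interval from limma (line). Points left of 0 are lower in the differentiation group. Both rows of Etv5 and the rows of Etv4, Elk3 and Ets1 passed an adjusted p of 0.05 (blue), and the interval of Ets2 reaches slightly below 0.

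Since the genes of a subfamily share targets, the differences between their changes were compared within each array for 6 pairs, picked after their values were seen. The within-array difference Etv5 minus Etv4 was 1.72 to 1.97 in the differentiation samples and 2.14 to 2.37 in the proliferation samples, so the log2 differences of the 2 genes differed by -0.45. The same measure was -1.2 for Etv5 minus Etv1 and -0.74 for Etv4 minus Etv1. It was -0.69 for Elk3 minus Elk1, -0.64 for Elk3 minus Elk4 and -0.67 for Ets1 minus Ets2. With the other rows of Etv5 and Etv1 the values were -0.56 for Etv5 minus Etv4, -1.15 for Etv5 minus Etv1 and -0.6 for Etv4 minus Etv1. None of the 6 pairs overlapped between the groups, and each gave an exact permutation p of 0.1, the smallest that 3 against 3 samples allow. Adjustment over the 6 pairs left it at 0.1. As the pairs were picked on these same values, the lack of overlap and the p are a description and not independent evidence.

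The genes whose levels ran most closely with the 3 most changed factors over the 6 arrays were found by Pearson correlation, as a description. The 6 points of each gene share the arrays and the group difference, so no p is given. For the main row of Etv5 they were Neil3 (0.9998), Cks1b (0.9997), Plk1 (0.9996), Slbp (0.9995) and Prc1 (0.9993), and the other row of Etv5 correlated with these 5 genes at 0.9883 to 0.994. For Etv4 they were Elp2 (0.9964), Jade1 (0.9961), Acly (0.996), Fasn (0.9955) and Rtkn2 (0.9942). For Elk3 they were Ypel2 (0.9992), Gria3 (0.9988), Trp53inp1 (0.9987), Asph (0.9984) and Ccng2 (0.9975). Among the ETS genes themselves, the main row of Etv5 correlated at 0.99 with Etv4, at 0.96 with Ets1, at 0.94 with Elk3 and at -0.86 with Ets2, and its other row at 0.96, 0.98, 0.97 and -0.8 with the same genes.

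Of 16 other ETS family genes measured, 1 was downregulated, none upregulated and 15 did not pass the test, with a median difference of 0.08. The downregulated gene was Fli1, a factor of endothelial and blood cells, which read 6.66, 6.77 and 6.48 in the differentiation samples, against 7.5, 7.14 and 7.3 in the proliferation samples (difference -0.68, limma, adjusted p = 0.0346). When each of the 6 samples was left out in turn, this call held only without the second proliferation sample, and the adjusted p reached 0.141. Elf1 (difference 0.37, adjusted p = 0.104) and Erg (0.22, 0.33) did not pass. Endothelial cells also use Fli1, Ets1 and Elk3. Of 7 endothelial markers 0 passed the test, their row means lay between 4.69 and 6.61, near the median of all rows (6.15), and their summed linear level was 430 to 463 in the differentiation samples and 401 to 477 in the proliferation samples. Of the 7 macrophage and blood cell markers 0 passed, with sums of 299 to 312 in the differentiation samples and 289 to 388 in the proliferation samples. In both lists limma gave 1 marker lower at an unadjusted p under 0.05 and the methods' t-test 1 marker higher. The levels of the markers in both lists were not shown to lie above background. The part of these cells in the values of Fli1, Ets1 and Elk3 was not tested.

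None of 13 partners and regulators of ETS factors, among them serum response factor, its coactivators, CIC and the ligase COP1, passed the test. At an unadjusted p under 0.05 limma gave 1 lower and 2 higher genes, and the methods' t-test 0 and 2. The smallest adjusted p values belonged to Myocd, the cardiac and smooth muscle coactivator of serum response factor (difference 0.44, adjusted p = 0.0531), Atxn1, a partner of CIC (0.33, 0.189), and Gabpb1, the partner subunit of Gabpa (-0.24, 0.301). The level of Myocd was low, with means of 4.88 in the differentiation and 4.44 in the proliferation samples. It was not shown to lie above background, and the row fell below the filter on the row mean. Of 18 measured genes that carry the signal from the FGF receptors to ERK, 1 was downregulated and 1 upregulated. Fgfr1 read 10.7, 10.79 and 10.8 in the differentiation samples, against 11.49, 11.18 and 11.32 in the proliferation samples (difference -0.57, adjusted p = 0.0296). Map2k1, the kinase of ERK also called MEK1, read 10.93, 10.96 and 11.03 in the differentiation samples, against 10.51, 10.4 and 10.41 in the proliferation samples (0.54, 0.0161). Leaving out single samples ended the call of Fgfr1 in all cases but that of the second proliferation sample (adjusted p up to 0.149) and that of Map2k1 without any differentiation sample or the third proliferation sample (0.0524 to 0.0859). Rps6ka3, an ERK-activated kinase, did not pass (-0.24, 0.196).

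Of 13 inhibitors that ERK signalling is known to induce against itself, 7 were downregulated, none upregulated and 6 did not pass, with a median difference of -0.63, and 12 of 13 had a negative difference. Dusp4, an ERK phosphatase of the nucleus, read 7.52, 7.63 and 7.7 in the differentiation samples, against 9.04, 9.57 and 9.06 in the proliferation samples (difference -1.61, limma, adjusted p = 0.00488). Spry4, a Sprouty inhibitor of receptor signalling, read 10.33, 10.47 and 10.55 in the differentiation samples, against 12.11, 11.74 and 11.9 in the proliferation samples (-1.47, 0.00316). These amounted to 3.05-fold downregulation of Dusp4 and 2.77-fold downregulation of Spry4, with no overlap between the groups. Spry2 (-0.82, adjusted p = 0.0102) and Dusp6, the cytoplasmic ERK phosphatase (-0.78, 0.0108), were also downregulated. Leaving out the third proliferation sample ended the call of Spry2 (adjusted p = 0.057), and leaving out the first differentiation or the third proliferation sample that of Dusp6 (0.0589 and 0.0611), whereas Spry4 and Dusp4 passed whichever sample was left out. Several of these genes were listed as regulated by the study itself.

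Of 17 immediate-early genes, 2 were upregulated and 15 did not pass. Fosl2, an AP-1 subunit, read 11.17, 11.14 and 11.11 in the differentiation samples, against 10.08, 9.4 and 9.85 in the proliferation samples (difference 1.36, limma, adjusted p = 0.00923), and Jun read 11.95, 11.87 and 11.67 in the differentiation samples, against 11.11, 11.02 and 11.2 in the proliferation samples (0.72, 0.0147). Junb did not pass (0.53, 0.0785). Without the first differentiation sample Fosl2 did not pass (adjusted p = 0.0609), and Jun did not pass without the first or the second differentiation sample or the third proliferation sample (0.0574 to 0.0803). In the GDNF and RET route, which works upstream and downstream of Etv4 and Etv5 in the ureteric bud, 2 of 7 genes were upregulated and 5 did not pass. Met, the receptor of hepatocyte growth factor, read 7.41, 7.04 and 7.01 in the differentiation samples, against 4.65, 4.28 and 4.31 in the proliferation samples (2.74, 0.00125), and Gdnf, the ligand of RET, read 9.8, 9.72 and 9.87 in the differentiation samples, against 8.12, 7.06 and 7.88 in the proliferation samples (2.11, 0.00877). The Met level in the proliferation samples was low and not shown to lie above background, so its log2 difference is not an exact size, and the row fell below the filter on the row mean. Without the first differentiation sample the call of Gdnf was lost (adjusted p = 0.056), whereas Met passed whichever sample was left out. Gfra1, the coreceptor of RET, did not pass (0.33, 0.135).

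**Figure D3:**
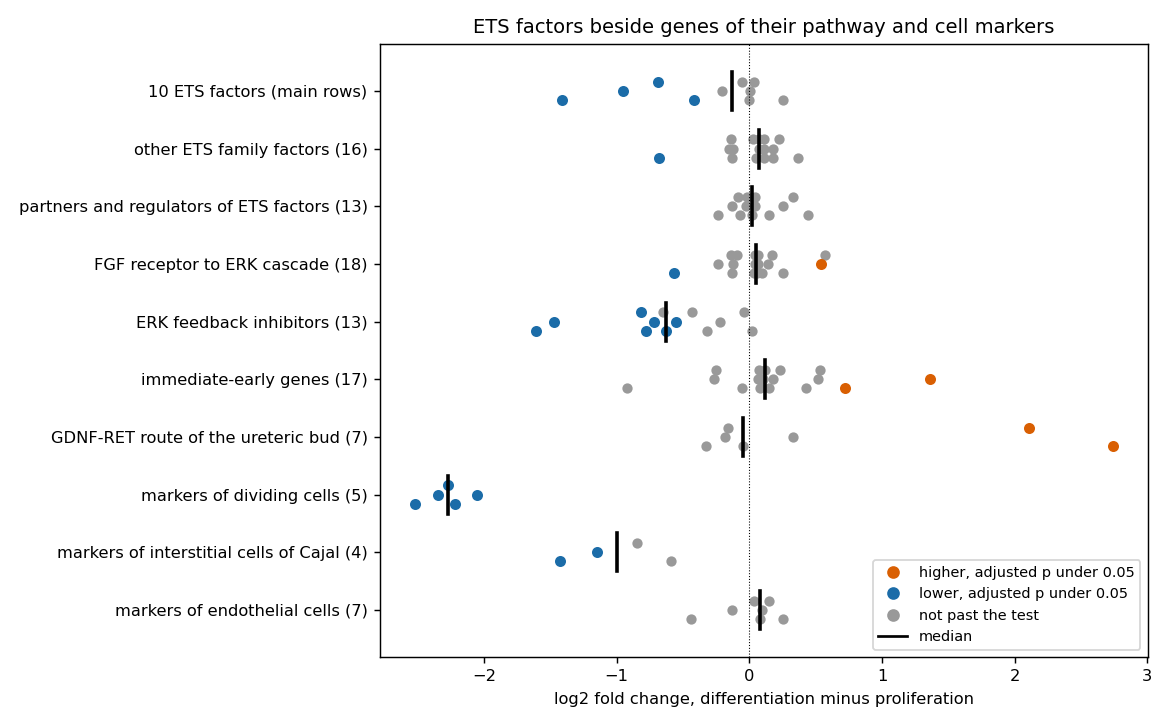
Log2 difference, differentiation minus proliferation, of the 10 ETS genes, of the measured genes of each pathway list and of 3 marker lists, with the number of genes in brackets. Each point is a gene, orange if upregulated, blue if downregulated and grey if the test was not passed, and the black bar is the median. The ERK feedback inhibitors have their median at -0.63 and the markers of dividing cells at -2.27, whereas the medians of the other pathway lists lie between -0.05 and 0.12.

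Markers of several cell types moved beside these values, and their part in the changes of the ETS genes was not tested. All 5 markers of dividing cells were downregulated, with a median difference of -2.27 and summed linear levels of 1040 to 1160 in the differentiation samples, against 4050 to 7020 in the proliferation samples. Bub1 (-2.52), Mki67 (-2.35), Top2a (-2.27) and Ccna2 (-2.22) each had a larger decrease than Etv5. Their highest sample was the second proliferation sample, as for Etv5 and Etv4, whereas Elk3 and Ets1 were highest in the first. Of 4 markers of interstitial cells of Cajal, Ano1 (-1.43, adjusted p = 0.00696) and Prkcq (-1.15, 0.00884) were downregulated, and Kit (-0.85, 0.0501) and Thbs4 did not pass, with sums of 2230 to 2650 in the differentiation samples, against 3740 to 5470 in the proliferation samples. The calls of Ano1 and Prkcq were lost without the first differentiation sample (adjusted p 0.0502 and 0.06). Of 6 smooth muscle markers 4 were upregulated, with sums of 1840 to 2020 in the differentiation samples, against 1150 to 1190 in the proliferation samples, and of 4 neuronal markers 1 was upregulated. Of 5 markers of enteric glia 2 were downregulated and 1 upregulated. None of 4 fibroblast markers or 6 epithelial markers passed, by limma or at an unadjusted p under 0.05 by limma or the methods' t-test.

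How far the calls depended on the samples and on the processing was examined for the 5 ETS genes with an unadjusted p under 0.05. Etv5 and Etv4 passed whichever sample was left out, with an adjusted p of 0.00524 to 0.0334 for the main row of Etv5, 0.00743 to 0.0294 for its other row and 0.0154 to 0.0491 for Etv4 (limma). Etv4 and the main row of Etv5 did not pass by the methods' t-test once it was adjusted over all rows, with an adjusted p of 0.0517 for the main row of Etv5 and 0.0609 for Etv4, whereas the other row of Etv5 reached 0.0498. Elk3 reached 0.0305 to 0.0893 and Ets1 0.0836 to 0.195 when samples were left out (limma), and neither row of Etv1 passed with a sample left out. With all samples kept, the other row of Etv1 did pass the methods' t-test adjusted over all rows (adjusted p = 0.0436). It also passed under several other settings, listed at the end.

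**Figure D4:**
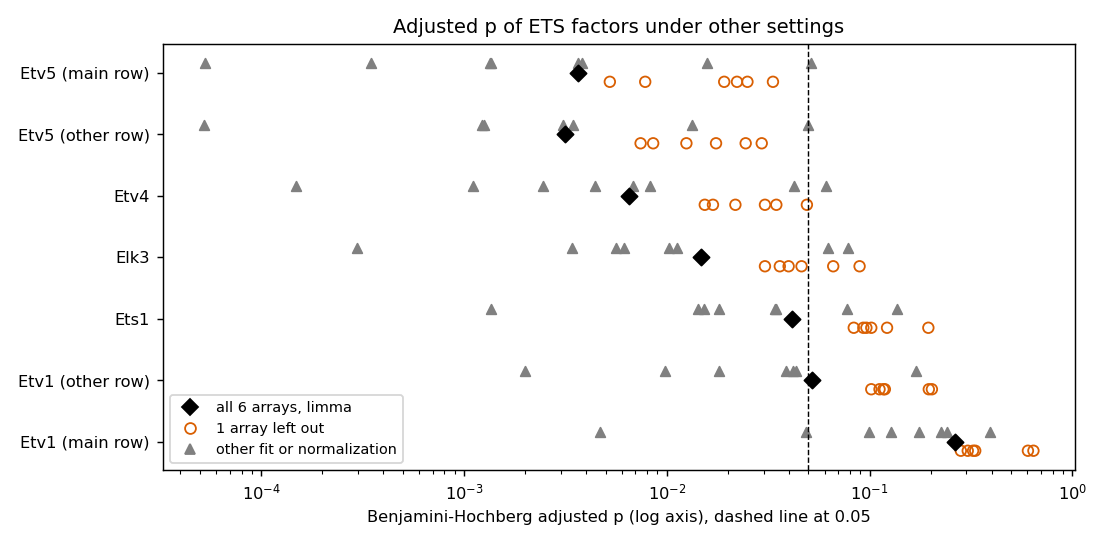
Benjamini-Hochberg adjusted p (log axis) of the ETS genes that passed the test or came near it, for all 6 arrays (black diamonds), with each array left out in turn (open orange circles) and under another fit or normalisation (grey triangles). The dashed line marks 0.05. The circles of Etv5 and Etv4 all lie left of the line, those of Elk3 on both sides and those of Ets1 all to its right.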

How the data were processed

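Total RNA of 6 enterosphere samples was hybridised to Affymetrix GeneChip Mouse Gene 1.0 ST arrays. The authors normalised the deposited log2 values by the RMA algorithm (background correction, quantile normalisation and probe summary), whereas for the genome build and the annotation version nothing was given in the sources used here. Because quantile normalisation gives all arrays 1 distribution, a shift shared by all genes would not be seen, and no detection calls were used. Gene symbols came from the platform annotation, and 21789 rows carried exactly 1 symbol. Both groups of 3 samples, taken from the labels, were compared in 1 limma fit (limma 3.58.1, R 4.3.3, lmFit and eBayes) over all 35556 rows, without covariates, with Benjamini-Hochberg adjustment, and a call is an adjusted p under 0.05. The script was tested on simulated data. The methods' t-test is the unpaired test the study used, without correction. P-values measure the spread between these samples, which the labels do not describe as separate litters.

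The ETS genes and the gene lists were chosen with earlier results of these data known. Named were all 10 ETS genes and their rows, and per list up to 4 called genes with the largest change, any called gene going alone against its list, and otherwise the smallest adjusted p up to 3 genes. The 5 most alike genes were named for Etv5, Etv4 and Elk3. Marker lists other than those of interstitial cells of Cajal and dividing cells are given by counts. Of 143 listed genes 132 were measured, and the others are not analysed here. Alternatives were a replicate block, limma-trend, cyclic loess, median centring, a filter on the median row mean (6.15), array weights, the methods' t-test, the mean of a gene's rows and leaving out each sample. Promoters were RefSeq windows matched by symbol for 8 of the 10 genes, and those of Etv4 and Ets1 were not in the table used here. Motifs were counted on both strands and may overlap.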

Additional observations from a re-analysis of the deposited data

How the results depend on the processing

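Etv5, Etv4, Elk3 and Ets1 kept a negative difference under every alternative. With the replicate number as a block, Elk3 (-0.69, adjusted p = 0.0623) and Ets1 (-0.42, 0.137) did not pass, 2 of the 10 genes were called lower, and the pathway lists gave 5 genes lower and 3 higher, against 9 and 5 in the fit reported. The block changed no other call among the ETS genes. Of the named list genes, Fli1 (-0.68, 0.0983), Fgfr1 (-0.57, 0.106), Map2k1 (0.54, 0.0813) and Jun (0.72, 0.0695) did not pass with it, and 4 ERK feedback inhibitors were called lower, against 7. The block left 664 rows called, against 1459. By the labels and the study's methods enterospheres were divided over both media, but no source ties the replicate numbers to shared cultures. The correlations of the deviations of same-numbered samples (0.0, 0.09 and -0.07) did not show pairing, and with 3 samples per group they cannot show its absence. By the methods' t-test after Benjamini-Hochberg, Etv5 (-1.41, adjusted p = 0.0517), Etv4 (-0.95, 0.0609), Elk3 (-0.69, 0.0783) and Ets1 (-0.42, 0.0775) did not pass, 0 genes were called lower and the lists gave 2 lower and 2 higher, with 253 rows called. By the same test 0 of 5 markers of dividing cells and 0 of 4 markers of interstitial cells of Cajal were called lower, against 5 and 2, whereas 5 and 3 were lower at its stated thresholds. At the stated thresholds of that test Ets1 (-0.42) was under 1.5-fold. Array weights called 12721 rows, with Etv1 (-0.32, adjusted p = 0.00468) and Ets2 (0.2, 0.0339) among them, 1 gene called higher, and 20 lower and 21 higher in the lists. The mean of a gene's rows called Etv1 (-0.28, 0.0486) and 9 list genes higher. The sign of uncalled genes turned for Elk1 under cyclic loess (0.0035) and for Etv6 under median centring (-0.03) and array weights (-0.022). The cause of these shifts was not tested.

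Leaving out each sample gave -1.5 to -1.29 for Etv5 (other row -1.61 to -1.42), -1.01 to -0.88 for Etv4, -0.24 to -0.18 for Etv1 (other row -0.37 to -0.33), -0.76 to -0.63 for Elk3, -0.46 to -0.38 for Ets1, 0.16 to 0.34 for Ets2, -0.032 to 0.02 for Elk1, -0.11 to -0.015 for Elk4, -0.05 to 0.064 for Etv6 and -0.046 to 0.13 for Gabpa. The genes called lower numbered 2 to 3, with 2 without the first differentiation or the third proliferation sample, and 0 were called higher. The lists gave 3 to 8 genes lower and 1 to 7 higher, and 294 rows were called without the first differentiation sample and 480 without the third proliferation sample. Of the ERK feedback inhibitors 3 to 6 were called lower, the fewest without either of these samples, and of the 4 markers of interstitial cells of Cajal 0 to 4. The row on the gene's own chromosome, an alternative chosen after seeing the data, gave -1.51 for Etv5 and -0.35 for Etv1, with the same calls. That row of Etv1 passed under limma-trend (adjusted p = 0.00978), cyclic loess (0.0418), median centring (0.0387), the filter (0.0181), array weights (0.00199) and the methods' t-test after Benjamini-Hochberg (0.0436).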
